A study of Mus musculus with 133 samples.

Results

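Hepatocytes from the regenerating liver of young female mice (YF), isolated 52 h after partial hepatectomy (PH), were compared with hepatocytes isolated at the same time after sham surgery. The comparison takes every library whose label names a YF mouse with PH or sham surgery and this time, leaving out 2 sham libraries that carry an X beside their number because 3 unmarked sham libraries remain. It therefore rests on 6 of the 133 libraries of the series, 3 after PH and 3 after sham surgery, and on 11048 genes tested of 11049 in the table. All mice were wild-type C57BL/6, and the young ones were 11 to 14 weeks old. PH removed the left and median lobes, whereas the sham operation was a midline incision that was closed again, so both groups share anaesthesia and laparotomy. The titles of the sham libraries read 2 days, whereas the time label of both groups gives 52 h. Other pairs of groups served only as a reference, namely young males (YM) of the same age and very old females (VOF) of 100 weeks, each with 3 libraries after PH and 3 after sham surgery at 52 h. Normal liver (NL) libraries of unoperated YF mice are given as levels. Hepatocytes were obtained by collagenase perfusion and low-speed pelleting, so that other liver cells may be present in small numbers, and in bulk RNA fewer cells of a type and less RNA per cell cannot be told apart. The labels number the libraries and do not say that each one is a separate mouse. The p-values thus measure the spread between libraries, estimated jointly over 46 unmarked libraries of 15 groups. Besides the groups named, these are old females, old males and very old males after PH and sham surgery at 52 h. YF libraries at 4 days after PH and after sham surgery are also among them. In age the old mice lay between the young and the very old ones.

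Most hepatocytes of an adult liver are outside the cell cycle. Removal of liver mass brings them back into it: cytokines and growth factors first induce immediate early genes and cyclin D, the E2F transcription factors then switch on the genes of DNA replication, and the MuvB complex with B-MYB and FOXM1 switches on the genes of mitosis. Meanwhile the remaining tissue has to go on making plasma proteins, bile and glucose. The series covers quiescent and regenerating livers of young and aged mice, and per its design text the YF libraries entered it for batch correction.

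The 6 libraries held 663665 to 2191188 transcripts, estimated from unique molecular identifiers (UMIs), and levels are given as CPM, counts scaled to a common library total by the trimmed mean of M-values (TMM). A floor of 3 counts corresponds to 1.37 CPM in the deepest library, sham 2, and to 4.52 CPM in the shallowest, sham 3. All floors in CPM given here use raw library totals, without TMM scaling. These floors cover counting error only. All 14 hepatocyte markers were detected, their summed level was 35216 to 50664 CPM after PH and 31863 to 53753 CPM after sham surgery, and 0 of them passed edgeR's test between the groups (1 had an unadjusted p under 0.05, and DESeq2 called 0). Xist had 107 to 2067 counts in each YF library and at most 4 in the YM libraries, and each Y-linked gene had at most 2 counts in a YF library, so the sex of the labels was borne out. PH 1, PH 2, sham 1 and sham 2 carry the same mix number in their labels, mix 3, while PH 3 (mix 18) and sham 3 (mix 17) carry others, and the labels do not say what a mix is. Xist was lower outside mix 3, at 130 CPM in PH 3 and 155 CPM in sham 3, against 612 to 896 CPM within it. In NL it was at 146 CPM in library 4 (mix 18) and at 444 to 645 CPM in the others. The part of the mix in these levels was not tested. Each library was distinct from the others of its group beyond sampling noise. NL libraries 1, 2 and 3 carry mix 2, which no operated YF library at 52 h carries, and NL library 4 carries mix 18. Differences in level between NL and the operated groups are thus partly confounded with the mix.

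PH was followed by higher levels of most mitosis genes (59 of 67) and lower levels of part of the clock (9 of 20), lipogenic (8 of 22) and female-biased genes (8 of 28). Of the 11048 genes, 354 were called higher after PH (3.2%) and 245 lower (2.22%), a call being an adjusted p under 0.1 in edgeR's quasi-likelihood test together with a change of at least 2-fold. The median log2 fold change was 1.57 among the genes called higher and -1.37 among those called lower, against -0.0037 over all genes tested. Changes of at least 4-fold were more often upward, with 120 genes higher and 40 lower. Of the 354 genes called higher, 94 belong to lists of proliferation genes, whereas 0 of the 245 lower genes do. These lists are DNA replication (35 genes tested), nucleotide and one-carbon synthesis (27), mitosis (67), cell cycle regulators (25), and homologous recombination with the Fanconi pathway (12). They hold few of the 11048 genes tested, so 0 among the 245 lower genes says little by itself. The lists were chosen with earlier results of these data known. In 533 of the 599 called genes the 3 PH libraries lay entirely on one side of the 3 sham libraries. Over all genes tested the PH libraries lay entirely above in 14.1% and entirely below in 14.6%. With the mix added to the model the calls were 126 higher and 99 lower. Only 119 of the 354 higher and 75 of the 245 lower genes were still among them. Without PH 1 the calls were 207 higher and 84 lower. Within mix 3 all 599 called genes kept their direction and 421 of them passed the same test. The mix 3 libraries are part of those the calls came from, so this is not independent evidence.

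**Figure D1:**
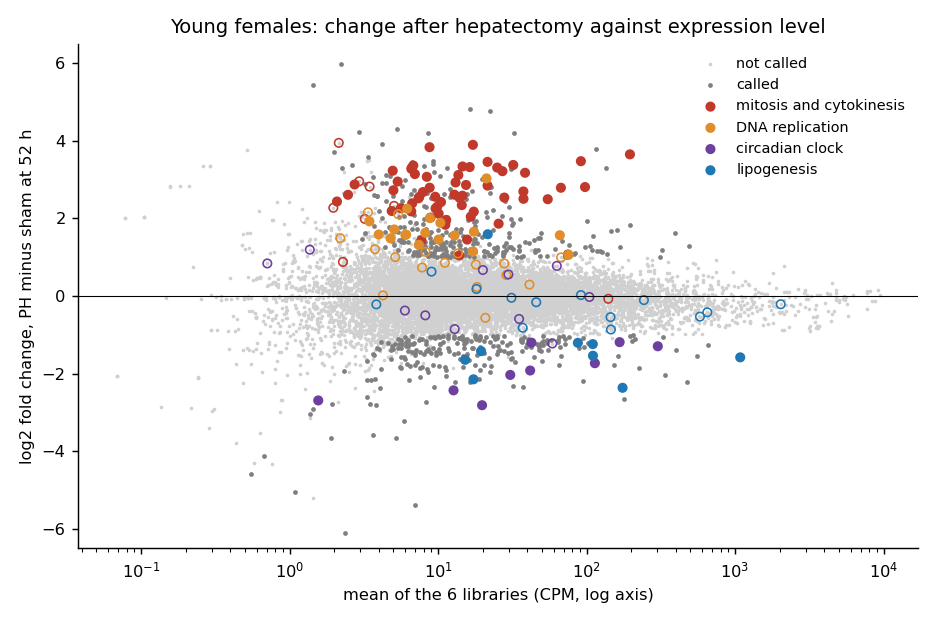
Change after PH against expression level in young female hepatocytes at 52 h. Each point is 1 of the 11048 genes tested, with mean CPM over the 6 libraries on a log axis and the log2 fold change PH over sham on the vertical axis. Called genes are dark grey and others light grey, and coloured circles mark 4 gene lists, filled where the gene was called. Mitosis genes (59 of 67 higher) lie in the upper part and clock genes (9 of 20 lower) in the lower part.

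Many genes of mitosis share a short promoter element, the cell cycle genes homology region (CHR), through which the MuvB complex binds. The promoter windows that RefSeq gives for GRCm38.p6 (250 bases before to 50 after a start site) were searched on both strands for its letters TTTGAA. Of the windows of mitosis genes called higher, 72.5% held the element (37 of 51 windows, 34 of 48 genes with a window). The share was 72.9% (43 of 59 windows) over all mitosis genes tested, so it describes the list rather than the calls. It was 17.9% in all 32851 windows and 12.6% in the windows of genes tested. The CCAAT box, another element common in these promoters, was in 78.4% of the windows of mitosis genes called higher. It was in 37.4% of all windows, and in 77.8% of those of clock genes called lower (7 of 9). Stretches of 30 bases around the CHR are shown for 6 mitosis genes that the results below turn on, each read 5′ to 3′ on the strand named, with the element in capitals.
Plk1, chr7:122159453-122159482, + strand: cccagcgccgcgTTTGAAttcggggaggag
Prc1, chr7:80294434-80294463, + strand: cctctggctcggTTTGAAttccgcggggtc
Espl1, chr15:102296254-102296283, + strand: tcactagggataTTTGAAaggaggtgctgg
Cdc20, chr4:118437344-118437373, - strand: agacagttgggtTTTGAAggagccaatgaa
Cdk1, chr10:69352910-69352939, - strand: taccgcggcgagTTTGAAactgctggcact
Top2a, chr11:99024195-99024224, + strand: tccctagtttcaTTTGAAcctttatctagc
In Plk1 the element shown begins 30 bases after the start site and in Cdk1 15 bases before it. An element in a promoter is a description of its letters, not proof that a factor binds there. Genes of DNA replication were searched for another element. E2F-type sites (TTTGGCGC, TTTCCCGC, TTTCGCGC or TTTGCCGC on either strand) were found in 36.4% of the windows of the replication genes tested (12 of 33 windows), against 2.26% of all windows. In the genes called higher the share was 20% (3 of 15 windows), those of Mcm5, Mcm6 and Mcm7, subunits of the helicase that opens DNA at replication origins. Their stretches, chosen because all 3 genes rose, show the site in capitals.
Mcm5, chr8:75109345-75109374, + strand: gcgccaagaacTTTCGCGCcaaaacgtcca
Mcm6, chr1:128359734-128359763, - strand: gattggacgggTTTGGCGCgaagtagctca
Mcm7, chr5:138171849-138171878, - strand: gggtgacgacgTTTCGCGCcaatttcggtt

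Mitosis genes had the largest median change of the 40 lists examined. Of 67 genes of mitosis and cytokinesis tested, 59 were higher after PH and 0 were lower (0 also at an unadjusted p under 0.05 and 0 by DESeq2), and the median log2 fold change of the 67 was 2.61, or 2.5 when the 11 genes at the floor in all sham libraries were set to their lower bound. Their summed level was 3232, 1777 and 2321 CPM in PH 1, 2 and 3 and 473, 607 and 342 CPM in sham 1, 2 and 3. Every PH library was thus above every sham library, with PH 1 highest, and the sham libraries lay around the 398 to 510 CPM of NL. At 4 days after PH the sum was 1129 to 2225 CPM. In 54 of the 67 genes all PH libraries lay above all sham libraries, and in sham 3 40 of the 67 were at 0, against 4 in sham 1 and 0 in sham 2. Without PH 1 the calls fell to 31, and with the mix in the model to 32, while 49 were called within mix 3. In 25 of the 67 genes, 20 of them called, the deposited table holds values that are not whole numbers. Such values occur in 448 genes of the table.

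Plk1, the kinase that drives entry into mitosis and spindle assembly, was the most abundant gene of the list, at 500.1, 195 and 405 CPM after PH and 28.6, 46.4 and 0 CPM after sham surgery, with NL at 51.7 to 68.5 CPM. The groups did not overlap, and sham 3 was at 0 although its floor was 4.52 CPM and the other sham libraries were well above it. The log2 fold change was 3.65 ± 0.94 (SE, here derived from the test statistic), adjusted p = 0.0105. Prc1, which bundles the microtubules of the central spindle, was at 225, 106 and 179.7 CPM after PH and 19.7, 19.7 and 0 CPM after sham surgery, a log2 fold change of 3.48 ± 0.61 (SE), adjusted p = 0.000307. All its PH libraries lay more than 5-fold above the highest sham library. Top2a, the topoisomerase that untangles chromosomes, was at 154, 132 and 232 CPM after PH and 18.8, 33.3 and 15.9 CPM after sham surgery (2.81 ± 0.47 (SE), adjusted p = 0.000142). Cdk1, the kinase of mitotic entry, was at 77.4, 44 and 75.9 CPM after PH and 7.16, 13.5 and 7.25 CPM after sham surgery. Its groups lay more than 3-fold apart, with a log2 fold change of 2.70 ± 0.52 (SE), adjusted p = 0.00084.

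Several of the largest changes belonged to genes close to the floor in sham hepatocytes. Nusap1, a spindle microtubule protein, was at 66.1, 23.4 and 8.86 CPM after PH and 0.895, 3.69 and 0 CPM after sham surgery, and its log2 fold change was 3.90 ± 0.79 (SE), adjusted p = 0.0014. Its PH values spread widely, with PH 1 highest, and the call was lost without PH 1. Ska1, a subunit of a kinetochore complex, was at 26.3, 11 and 15.2 CPM after PH and 0.895, 2.46 and 0 CPM after sham surgery, a log2 fold change of 3.49 ± 0.67 (SE), adjusted p = 0.00084. Espl1, the protease separase that opens cohesin at anaphase, had 82 counts in the PH and 5 in the sham libraries, a ratio of CPM of 15.7 with an exact 95% interval of 6.45 to 49.6. For Shcbp1, which acts at the midbody, the corresponding ratio was 20.1 (7.55 to 75.4; 84 and 4 counts). In both genes all sham libraries were at or below the floor, so that the ratio of counts, and not the fitted change, describes them. Fam83d, a spindle protein, was at 292, 151 and 215 CPM after PH and 13.4, 25 and 0 CPM after sham surgery, and its log2 fold change of 3.79 ± 0.91 (SE), adjusted p = 0.00613 was not called by DESeq2.

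**Figure D2:**
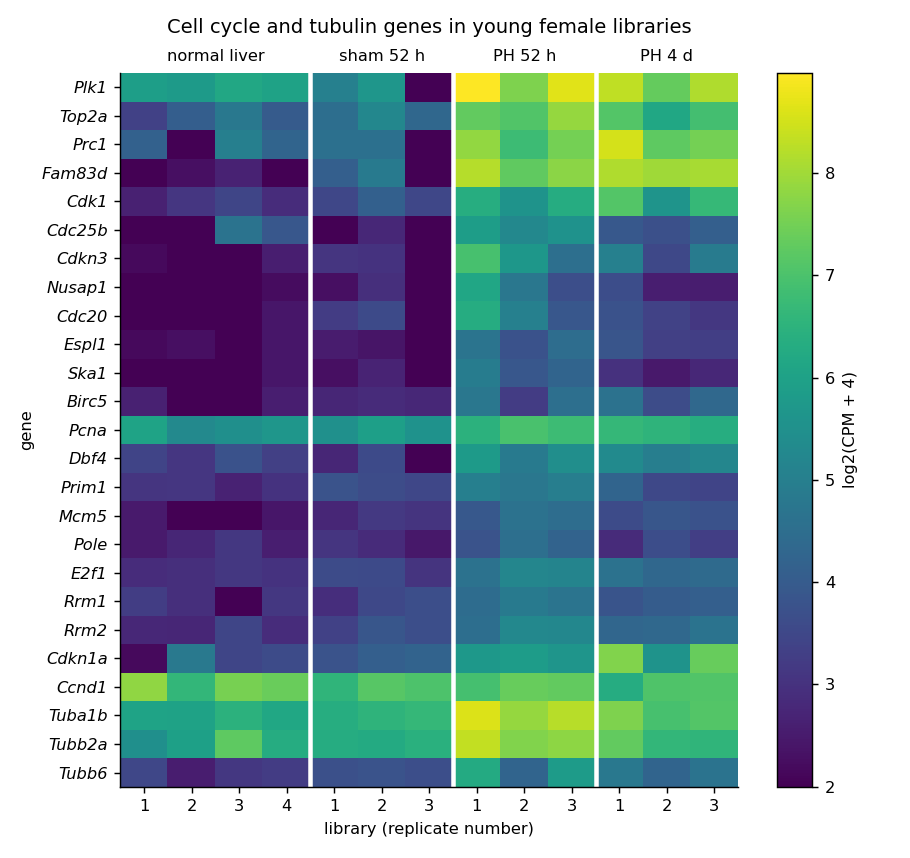
Levels of cell cycle genes in each library of young female hepatocytes. The heat map shows log2(CPM + 4) for 25 genes in rows, and its columns are the libraries of normal liver, sham and PH at 52 h and PH at 4 days by replicate number. In 24 of the 25 genes the 3 PH libraries at 52 h lie above the 3 sham libraries, the other being Ccnd1.

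The other 8 mitosis genes were not called. Pttg1, which encodes securin, was the only one of the 67 with a negative log2 fold change, -0.07 ± 0.14 (SE), adjusted p = 0.84, at 146, 137 and 126 CPM after PH and 139.6, 145 and 146 CPM after sham surgery. The others, among them the kinesins Kif15 and Kif20b, had adjusted p of at least 0.109. Among the 11 cell cycle genes that the study itself followed, 10 were higher, and the exception was Ccne1, the cyclin of the G1 to S transition, with 0.86 ± 0.82 (SE), adjusted p = 0.609. That list was chosen in the same series, so its direction is not independent evidence. Cdc20, which activates the anaphase-promoting complex, was at 76.5, 28.9 and 10.8 CPM after PH and 5.37, 7.80 and 0 CPM after sham surgery, a log2 fold change of 2.85 ± 0.78 (SE), adjusted p = 0.0173, and it was not called without PH 1 or by DESeq2.

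Genes of DNA replication were higher in part, with a smaller median change than mitosis genes. Of 35 tested, 17 were higher and 0 lower, with a median log2 fold change of 1.46 over the 35, and in 28 of them all PH libraries lay above all sham libraries. The sum over the list was 698, 865 and 826 CPM in the PH libraries, against 347, 394 and 341 CPM in the sham libraries, and PH 2, the lowest PH library for mitosis, was the highest here. Dbf4, the activating subunit of the CDC7 kinase that fires origins, was at 52.1, 24.7 and 39.9 CPM after PH and 2.68, 7.80 and 0 CPM after sham surgery, with the steepest change of the list, 3.03 ± 0.57 (SE), adjusted p = 0.00063. Pole, the leading strand polymerase, was at 9.85, 19.2 and 14.6 CPM after PH and 4.47, 3.28 and 1.45 CPM after sham surgery, a log2 fold change of 2.01 ± 0.45 (SE), adjusted p = 0.00322. The helicase subunit Mcm5 was at 11.3, 20.6 and 18.4 CPM after PH and 2.68, 4.93 and 4.35 CPM after sham surgery (1.89 ± 0.52 (SE), adjusted p = 0.0173), and the primase subunit Prim1 at 28.1, 23.4 and 27.8 CPM after PH and 9.84, 8.21 and 7.25 CPM after sham surgery (1.66 ± 0.35 (SE), adjusted p = 0.00179). Pcna, the sliding clamp and the most abundant gene of the list, was at 84.9, 121 and 106 CPM after PH and 41.2, 57.9 and 43.5 CPM after sham surgery. It rose about as much as a 2-fold minimum allows, with a log2 fold change of 1.06 ± 0.22 (SE), adjusted p = 0.00147, and its call was lost without PH 2 or without sham 1. With the mix in the model 3 of the 35 genes were called, and within mix 3 there were 9.

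Nucleotide and one-carbon synthesis changed in part. Of 27 genes, 7 were higher (Cad, Tk1, Tyms, Psph, Rrm2, Rrm1 and Psat1) and 0 lower, and the median log2 fold change was 0.52. Both subunits of ribonucleotide reductase, which makes deoxyribonucleotides, were among them, Rrm1 at 18.3, 24.7 and 21.5 CPM after PH and 3.58, 7.39 and 8.70 CPM after sham surgery (1.66 ± 0.43 (SE), adjusted p = 0.0108) and Rrm2 at 18.8, 34.4 and 33.5 CPM after PH and 6.26, 10.7 and 8.70 CPM after sham surgery (1.60 ± 0.41 (SE), adjusted p = 0.01). Psat1 and Psph, enzymes of serine synthesis, had log2 fold changes of 2.26 ± 0.59 (SE), adjusted p = 0.0108 and 1.55 ± 0.45 (SE), adjusted p = 0.0224, and neither was called without PH 1. The most abundant gene of the list, the mitochondrial Shmt2, was at 432, 526 and 459 CPM after PH and 482, 454 and 464 CPM after sham surgery. Its groups overlapped. Without PH 1 there were 4 calls in the list and with the mix in the model 1.

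Among cell cycle regulators 9 of 25 were higher and 0 lower. Cdc25b, the phosphatase that activates CDK1, had the largest log2 fold change of all genes named here, 4.76 ± 0.97 (SE), adjusted p = 0.00147, at 54.9, 34.4 and 43 CPM after PH and 0, 2.87 and 0 CPM after sham surgery. Cdkn3, a phosphatase of cyclin-dependent kinases, was at 118, 48.1 and 19.6 CPM after PH and 4.47, 4.11 and 0 CPM after sham surgery (4.20 ± 0.95 (SE), adjusted p = 0.00393), with PH 1 far above PH 3, and its call was lost without PH 1. E2f1, a transcription factor of replication genes, was at 20.6, 33 and 31.6 CPM after PH and 8.05, 7.80 and 4.35 CPM after sham surgery (1.91 ± 0.33 (SE), adjusted p = 0.000258), and this call held under every alternative. The D-type cyclins and their kinases were not called. Ccnd1, which encodes cyclin D1, was the most abundant gene of the list, and its values of 117, 161 and 154 CPM after PH and 90.4, 141 and 126 CPM after sham surgery overlapped between the groups (0.25 ± 0.35 (SE), adjusted p = 0.76). Ccnd2, Ccnd3, Cdk4 and Cdk6 had log2 fold changes of -0.04 to 0.45 with adjusted p of at least 0.43. Foxm1, which encodes a transcription factor of the mitosis genes, had a log2 fold change of 2.19 ± 0.90 (SE), adjusted p = 0.128, at 12.7, 6.87 and 7.59 CPM after PH and 0.895, 3.28 and 0 CPM after sham surgery. Of the 25, 4 were called without PH 1, 4 with the mix in the model and 5 within mix 3.

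Genes of the damage response were mostly not called. Of 17 p53 targets, 1 was higher and 1 lower. The higher one was Cdkn1a, which encodes the cyclin-dependent kinase inhibitor p21, at 48.8, 53.6 and 46.2 CPM after PH and 9.84, 13.1 and 14.5 CPM after sham surgery, a log2 fold change of 1.98 ± 0.70 (SE), adjusted p = 0.0683 that was lost without PH 1, without PH 3 and without each of the sham libraries in turn. The lower one was Ddit4, an inhibitor of mTORC1, at 1.88, 2.75 and 2.53 CPM after PH and 8.05, 6.57 and 7.25 CPM after sham surgery (-1.63 ± 0.60 (SE), adjusted p = 0.0846). None of the 10 DNA damage response genes that the study followed was called, with a median log2 fold change of 0.37, and Rad50, the most abundant of them, was at 10.3, 9.62 and 12 CPM after PH and 9.84, 8.62 and 11.6 CPM after sham surgery. Of 12 genes of homologous recombination and the Fanconi pathway, Bard1 and Fanci were higher, Bard1 at 12.2, 19.2 and 16.5 CPM after PH and 2.68, 3.28 and 0 CPM after sham surgery (2.53 ± 0.93 (SE), adjusted p = 0.0811). The call of Bard1 was lost in each of the 6 fits that left out 1 library.

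Tubulins and some other cytoskeletal genes were higher. Of 30 genes of the cytoskeleton and of calcium-binding proteins, 12 were higher, 0 were lower and 20 had all PH libraries above all sham libraries, with a median log2 fold change of 0.81. The 12 included 7 tubulins, whose reads may be shared between near-identical genes. Tuba1b, an alpha-tubulin, was at 389, 231 and 298 CPM after PH and 77.9, 89.1 and 95.7 CPM after sham surgery, a log2 fold change of 1.82 ± 0.23 (SE), adjusted p = 2.41e-06 that held under every alternative. The beta-tubulins Tubb2a and Tubb6 were at 321, 198 and 216 CPM after PH and 76.1, 72.3 and 82.6 CPM after sham surgery (1.69 ± 0.40 (SE), adjusted p = 0.00525) and at 73.2, 15.1 and 53.2 CPM after PH and 8.95, 9.85 and 8.70 CPM after sham surgery (2.45 ± 0.41 (SE), adjusted p = 0.000142). Lgals1, Anxa2, S100a11, Tpm1 and Cd63 were the others called, with log2 fold changes of 1.18 to 1.99. Actb, the most abundant gene of the list, lay higher in every PH library, at 1174, 1357 and 1152 CPM after PH and 1045, 949.6 and 1038 CPM after sham surgery, yet its log2 fold change of 0.28 ± 0.17 (SE), adjusted p = 0.344 did not pass the test. With the mix in the model 6 of the 30 were called.

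**Figure D3:**
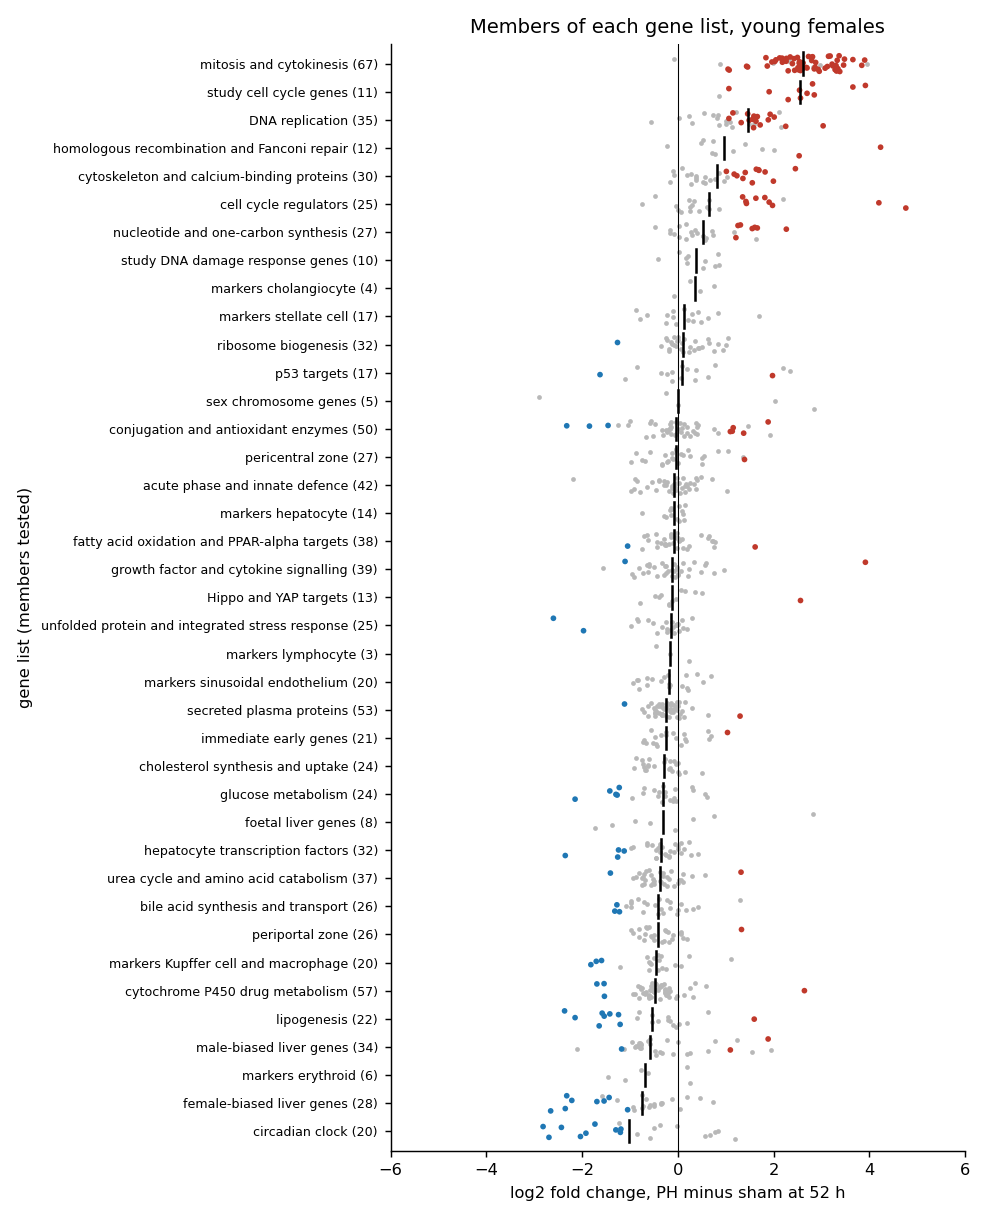
Log2 fold change of each gene in lists with at least 3 genes tested, young female PH over sham at 52 h. Points are single genes, red where called higher, blue where called lower and grey otherwise, and the black line marks the median of the list. Mitosis (59 of 67 higher) stands at the upper end, and the circadian clock (9 of 20 lower) at the lower end.

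Immediate early and growth factor genes were mostly not called. Of 21 immediate early genes only Klf6, a zinc finger transcription factor, was called, at 26.3, 45.4 and 39.9 CPM after PH and 18.8, 16.4 and 17.4 CPM after sham surgery (1.03 ± 0.33 (SE), adjusted p = 0.0368), and the call was lost without PH 2, PH 3 or sham 2. Jun, the most abundant of them, overlapped between the groups at 485, 1284 and 537 CPM after PH and 860.1, 729.9 and 1123 CPM after sham surgery. In the list of growth factors, cytokines and their receptors 2 of 39 were called. Tnfrsf12a, the receptor of TWEAK, was higher at 10.3, 9.62 and 4.43 CPM after PH and 0, 0.821 and 0 CPM after sham surgery (adjusted p = 0.00155), with all sham libraries at or below the floor, so that no fold is given. Vegfa, the endothelial growth factor, was lower at 35.2, 55 and 51.3 CPM after PH and 89.5, 122 and 76.8 CPM after sham surgery (-1.10 ± 0.22 (SE), adjusted p = 0.00113), the latter not without PH 1 or without sham 2. Met and Egfr, the receptors of the main hepatocyte mitogens, had log2 fold changes of -0.26 and 0.21 with adjusted p of 0.262 and 0.557. Of 13 Hippo pathway genes and YAP targets only Birc5, which is also a mitosis gene, was called, and Yap1 itself was at 62.4, 56.4 and 61.4 CPM after PH and 49.2, 67.7 and 53.6 CPM after sham surgery.

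Genes of the circadian clock were lower in part after PH. Of 20 tested, 9 were lower and 0 higher, with a median log2 fold change of -1.02, or -0.85 with the genes at the floor set to their bound. The 9 were Per2, Per3, Ciart, Bhlhe41, Nr1d1, Nr1d2, Dbp, Tef and Hlf, repressors of the clock and the factors that bind D-boxes. Per3 was at 4.22, 2.75 and 7.59 CPM after PH and 41.2, 42.7 and 20.3 CPM after sham surgery, the largest decrease of all genes named here (-2.81 ± 0.50 (SE), adjusted p = 0.000307), and this call held under every alternative. Per2 was at 1.88, 8.25 and 5.06 CPM after PH and 12.5, 34.1 and 14.5 CPM after sham surgery (-2.43 ± 0.54 (SE), adjusted p = 0.00322). The D-box factors Dbp and Tef were at 9.38, 24.7 and 24.7 CPM after PH and 60, 95.2 and 36.2 CPM after sham surgery (-1.92 ± 0.63 (SE), adjusted p = 0.0466) and at 31.9, 74.2 and 60.1 CPM after PH and 175, 219 and 122 CPM after sham surgery (-1.73 ± 0.45 (SE), adjusted p = 0.0105). Nr1d1, which encodes the repressor REV-ERBα and is the most abundant gene of the list, was at 99, 228 and 204 CPM after PH and 424, 459.8 and 396 CPM after sham surgery (-1.30 ± 0.39 (SE), adjusted p = 0.0282). The activators of the clock were not called: Arntl, Clock and Npas2 had log2 fold changes of 1.20, 0.56 and 0.84 with adjusted p of 0.556, 0.182 and 0.866. NL libraries, which had no surgery, spread widely in these genes, from 6.46 to 112 CPM in Dbp and from 4.62 to 20.8 CPM in Per3. Per the study's methods the operations were done in the morning, and the hour of collection of each library is not given in the sources used here. The titles read 2 days for sham and 52 h for PH, although the time label gives 52 h for both. Whether the hour of collection differed between the groups is thus not known, and its part in these changes was not tested. Dbp, Tef and Nr1d1 were not called without PH 1, and Per2 and Dbp not without sham 2. Without PH 1 the list had 2 calls, without sham 2 it had 4, and with the mix in the model 2, while 7 were called within mix 3.

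Promoters of the clock genes are shown because E-boxes and D-boxes are the elements through which the clock factors act. The E-box CACGTG was found in 44.4% of the promoter windows of the clock genes called lower (4 of 9 windows, 3 of 8 genes). It was in 27.3% of the windows of all clock genes tested (6 of 22) and in 7.15% of all windows. The D-box (TTATGTAA or TTACGTAA) was in 11.1% (1 of 9), 4.5% (1 of 22) and 1.06% of these windows, in the same order. The stretches, with the element in capitals, come from the windows of the genes called lower.
Per3, chr4:151044852-151044881, - strand: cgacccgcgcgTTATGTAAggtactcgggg
Ciart, chr3:95882269-95882298, - strand: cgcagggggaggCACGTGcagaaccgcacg
Tef, chr15:81802534-81802563, + strand: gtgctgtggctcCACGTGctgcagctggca
Bhlhe41, chr6:145865556-145865585, - strand: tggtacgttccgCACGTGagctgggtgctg
Per3 holds the D-box of the set, and its window has another copy closer to the start site.

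Lipogenic genes were lower in part, and cholesterol genes were not called. Of 22 lipogenesis genes 8 were lower and 1 higher, and in 12 all PH libraries lay below all sham libraries. Thrsp, a regulator of fatty acid synthesis, was at 45.5, 72.8 and 56.3 CPM after PH and 243, 315 and 316 CPM after sham surgery (-2.37 ± 0.44 (SE), adjusted p = 0.000548), with NL at 112 to 422 CPM. The groups lay more than 3-fold apart. Scd1, the stearoyl-CoA desaturase, was at 444, 737 and 452 CPM after PH and 1731, 1439.8 and 1694 CPM after sham surgery (-1.58 ± 0.31 (SE), adjusted p = 0.000792), and both groups were below the 3429 to 5235 CPM of NL. Acacb, the acetyl-CoA carboxylase at mitochondria, was at 5.63, 9.62 and 7.59 CPM after PH and 23.3, 20.5 and 24.6 CPM after sham surgery (-1.64 ± 0.31 (SE), adjusted p = 0.000682). Fads1, a desaturase and the most abundant of the list, was at 1612, 2264 and 1769 CPM after PH and 2633, 1816 and 2081 CPM after sham surgery (-0.21 ± 0.18 (SE), adjusted p = 0.537). Lpin1, Acss2 and Mlxipl, which encodes the carbohydrate-responsive factor ChREBP, were also lower, and the higher gene was Fads2, a desaturase whose libraries overlapped, at 59.1, 8.25 and 27.8 CPM after PH and 13.4, 12.3 and 8.70 CPM after sham surgery. Fasn, Acly and Acaca, the enzymes that build the fatty acid chain, were not called, with log2 fold changes of -0.86, -0.10 and -0.04. With the mix in the model 5 were called lower. Of 24 genes of cholesterol synthesis and uptake 0 were called, although 20 had a negative log2 fold change.

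In glucose metabolism 5 of 24 were lower and 0 higher. Pklr, the liver pyruvate kinase, was at 12.7, 6.87 and 10.8 CPM after PH and 24.2, 32 and 30.4 CPM after sham surgery (-1.42 ± 0.33 (SE), adjusted p = 0.00453), and its groups lay apart. The pyruvate dehydrogenase kinases Pdk2 and Pdk1 were at 23.5, 28.9 and 31.6 CPM after PH and 67.1, 71.8 and 62.3 CPM after sham surgery (-1.29 ± 0.24 (SE), adjusted p = 0.000562) and at 11.7, 30.2 and 13.3 CPM after PH and 43.9, 34.1 and 40.6 CPM after sham surgery (-1.27 ± 0.26 (SE), adjusted p = 0.0016), and Slc37a4, the glucose 6-phosphate transporter, was also lower. The call of Pdk1 was lost without PH 1. The gluconeogenic genes Pck1, G6pc and Fbp1 had log2 fold changes of -0.28, -0.04 and -0.11 with adjusted p of at least 0.56. With the mix in the model 2 of the 24 were called. Of 38 genes of fatty acid oxidation, 1 was higher and 1 lower, the thioesterases Acot1 (higher) and Acot3 (lower), near-identical neighbours whose reads may be exchanged. Neither was called by DESeq2, with the mix in the model or within mix 3. The call of Acot3 was lost in each of the 6 fits that left out 1 library, and that of Acot1 in all of these but the one without PH 2.

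Bile acid genes and hepatocyte transcription factors were lower in part. Of 26 genes of bile acid synthesis and transport 3 were lower and 0 higher, and 13 had all PH libraries below all sham libraries. Abcg5 and Abcg8, which form the sterol transporter into bile, were at 50.7, 60.5 and 75.9 CPM after PH and 146, 174 and 107 CPM after sham surgery (-1.22 ± 0.25 (SE), adjusted p = 0.00141) and at 46.4, 61.9 and 61.4 CPM after PH and 127, 170.0 and 113 CPM after sham surgery (-1.32 ± 0.27 (SE), adjusted p = 0.00132), and both calls held under every alternative. Cyp8b1, which sets the share of cholic acid, was at 251, 418 and 490.4 CPM after PH and 1478, 625 and 694 CPM after sham surgery (-1.27 ± 0.43 (SE), adjusted p = 0.0547), with sham 1 high, and was not called without sham 1 or without PH 1. Cyp7a1, the rate-limiting enzyme of bile acid synthesis, had -1.09 ± 0.54 (SE), adjusted p = 0.225. The list had 6 calls without PH 2, 5 without PH 3, and 6 without sham 3. Among 32 hepatocyte transcription factors 4 were lower and 0 higher. Cebpa, a factor of hepatocyte differentiation, was at 65.2, 42.6 and 81.6 CPM after PH and 175, 157 and 132 CPM after sham surgery (-1.26 ± 0.23 (SE), adjusted p = 0.000465), and Mlxipl at 50.7, 74.2 and 74 CPM after PH and 145, 158 and 159 CPM after sham surgery (-1.24 ± 0.21 (SE), adjusted p = 0.00013). Klf15 was at 31.4, 41.2 and 38.6 CPM after PH and 77.9, 84.6 and 72.5 CPM after sham surgery (-1.12 ± 0.21 (SE), adjusted p = 0.000734) and not called without PH 1. Hnf4a, the central factor of hepatocyte identity, had a log2 fold change of -0.16 ± 0.12 (SE), adjusted p = 0.463.

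Female-biased genes were lower in part. Of 28 genes known to be higher in female than male mouse liver 8 were lower and 0 higher, with a median log2 fold change of -0.74, and in 13 all PH libraries lay below all sham libraries. A1bg, a secreted protein, was at 41.3, 97.6 and 20.9 CPM after PH and 389, 326 and 199 CPM after sham surgery (-2.66 ± 0.67 (SE), adjusted p = 0.00913). Cux2, a female-specific repressor of male-biased genes, was at 2.81, 4.12 and 3.16 CPM after PH and 17, 19.3 and 10.1 CPM after sham surgery (-2.35 ± 0.53 (SE), adjusted p = 0.00369), and Sult3a1, a sulfotransferase, at 4.69, 13.7 and 13.9 CPM after PH and 56.4, 30.8 and 71 CPM after sham surgery (-2.32 ± 0.49 (SE), adjusted p = 0.00311). In all 3 genes the groups lay apart, and the calls held under every alternative. Hamp2, a hepcidin-like peptide, was at 85.4, 285 and 150.0 CPM after PH and 774, 721 and 854 CPM after sham surgery (-2.21 ± 0.42 (SE), adjusted p = 0.000643). NL, whose libraries mostly carry another mix, lay far above both groups at 3364 to 7149.5 CPM. The monooxygenase Fmo2, Slc22a26 and Acot3 were also lower, of which Fmo2 was not called without PH 1 or without sham 2 and Acot3 in no fit that left out 1 library. Cyp2c69, the most abundant of the list, overlapped between the groups at 984, 1598 and 1264 CPM after PH and 2732, 1258 and 1769.6 CPM after sham surgery. Without PH 1 or without sham 2 there were 5 calls, and 12 of the 28 genes, 4 of them called, hold values that are not whole numbers. Of 34 male-biased genes 2 were higher, Gstp1 and Ugt2b38, and 1 was lower, Keg1, and none of these was called without PH 1. The 34 had a median log2 fold change of -0.58, and 24 of them had a negative value. At an unadjusted p under 0.05 in edgeR's test, 14 of the 34 were lower and 3 higher. Of the 28 female-biased genes 12 were lower and 0 higher at that level. Without PH 2 the lower calls in the male-biased list were 11. Mup2, a major urinary protein whose reads may be shared with its paralogs and the most abundant of the list, was at 2106, 4231 and 1833 CPM after PH and 5994, 3346 and 4526 CPM after sham surgery, and in it PH 2 exceeded the other PH libraries.

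**Figure D4:**
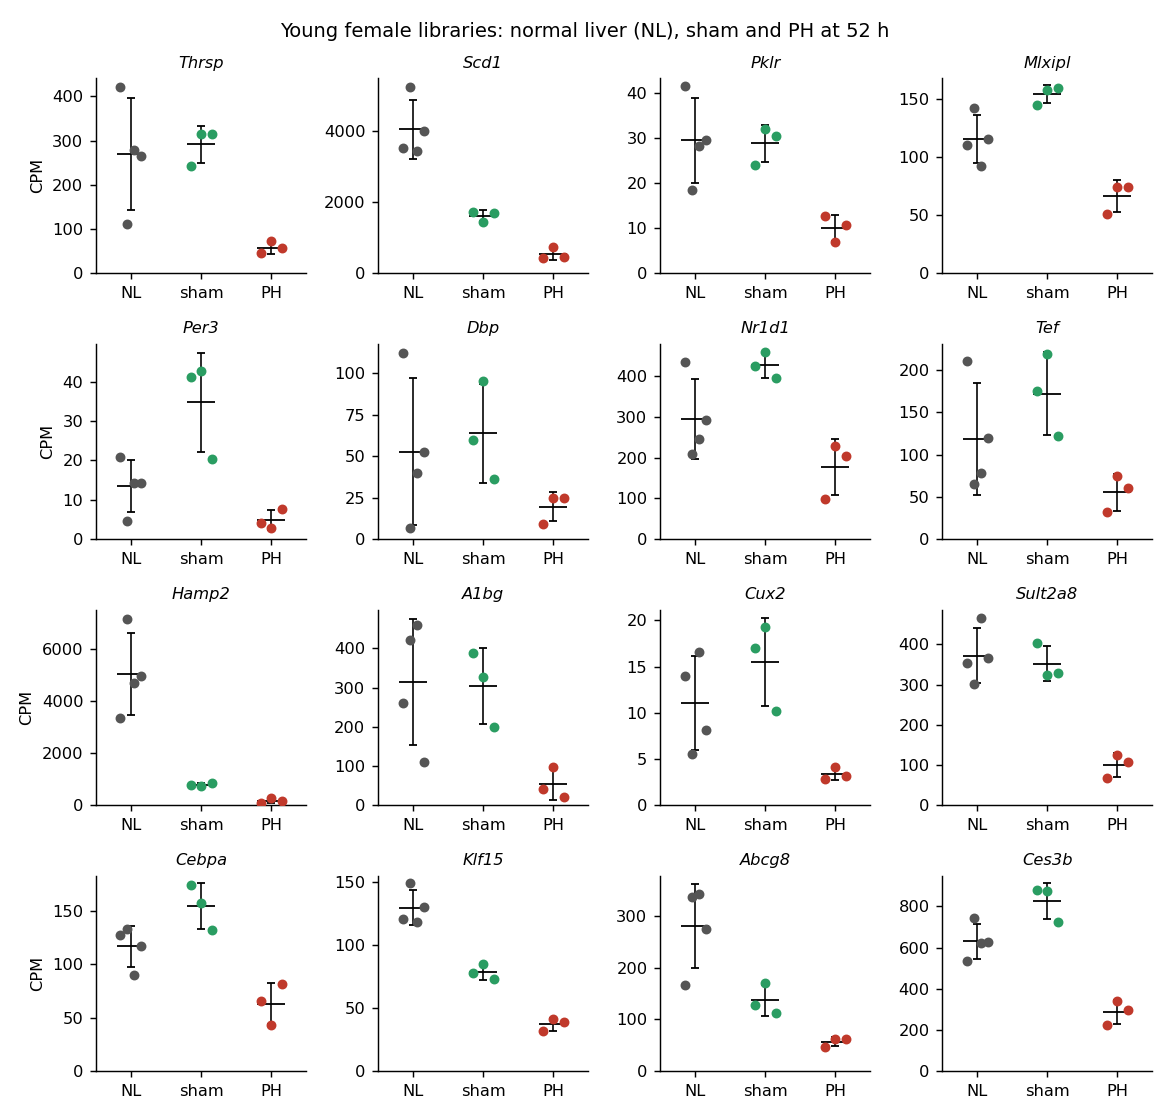
Levels of genes called lower after PH in each library of young female hepatocytes. Each of the 16 panels shows 1 gene in CPM on a linear axis from 0. Points are single libraries, and the black dash with its error bar is the mean ± SD, for normal liver (NL), sham and PH at 52 h. In all the genes drawn the 3 PH libraries lie below the 3 sham libraries, and in Scd1, Hamp2 and Klf15 normal liver lies above both groups.

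Drug metabolism changed in single genes. Of 57 cytochrome P450 and related genes 3 were lower and 1 higher, and 51 of the 57 had a negative log2 fold change, with a median of -0.47. Ces3b, a carboxylesterase, was at 224, 342 and 296 CPM after PH and 878, 875 and 725 CPM after sham surgery (-1.53 ± 0.24 (SE), adjusted p = 6.67e-05). Cyp2c55, from a family whose members share reads, was the higher one, at 17.8, 23.4 and 15.2 CPM after PH and 1.79, 2.87 and 4.35 CPM after sham surgery (2.64 ± 0.74 (SE), adjusted p = 0.0181), and was not called without sham 2. Of 50 conjugation and antioxidant enzymes 5 were higher and 3 lower. The sulfotransferases Sult2a8 and Sult5a1 were lower at 67.6, 125 and 107 CPM after PH and 403, 324 and 329 CPM after sham surgery (-1.85 ± 0.26 (SE), adjusted p = 1.75e-05) and at 14.5, 20.6 and 13.9 CPM after PH and 35.8, 44.3 and 49.3 CPM after sham surgery (-1.46 ± 0.30 (SE), adjusted p = 0.00162). Gstp1, a glutathione transferase, was higher at 249, 143 and 166 CPM after PH and 74.3, 86.6 and 106 CPM after sham surgery (1.10 ± 0.23 (SE), adjusted p = 0.00149), and Gstp2, Gstm3, Ugt2b38 and Srxn1 were higher as well. Without PH 1 there were 2 higher calls in that list, and the lower calls among the P450 genes were 1 without PH 1 and 1 without sham 2.

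Genes of secreted proteins were mostly not called. Of 42 acute phase and innate defence genes 0 were called, and Hpx, which encodes haemopexin, was at 6282, 10458 and 7183 CPM after PH and 12038, 5389 and 8523 CPM after sham surgery. Of 53 secreted plasma proteins 1 was higher and 1 lower, but 44 had a negative log2 fold change. Apoa4, an apolipoprotein, was higher at 674, 693 and 710.0 CPM after PH and 282, 268 and 296 CPM after sham surgery (1.30 ± 0.27 (SE), adjusted p = 0.00141), with NL at 117 to 148 CPM, and Serpina6, the corticosteroid-binding globulin, was lower at 99, 143 and 165 CPM after PH and 277, 398 and 187 CPM after sham surgery (-1.11 ± 0.36 (SE), adjusted p = 0.0426), the latter not without PH 1 or without sham 2. Of 37 genes of the urea cycle and amino acid catabolism Prodh, the proline dehydrogenase, was lower at 13.6, 26.1 and 23.4 CPM after PH and 61.8, 47.6 and 49.3 CPM after sham surgery (-1.41 ± 0.26 (SE), adjusted p = 0.000528), and Sdsl, a serine dehydratase-like enzyme, was higher at 25.8, 13.7 and 17.7 CPM after PH and 8.05, 7.39 and 10.1 CPM after sham surgery (1.32 ± 0.31 (SE), adjusted p = 0.00489). The call of Sdsl was lost without PH 1 and with the mix in the model. Among 27 pericentral genes only Gstm3 was called and among 26 periportal genes only Sdsl.

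Ribosome biogenesis, a hallmark of growth, was not called upward. Of 32 genes 0 were higher and 1 was lower, Polr1b, a subunit of RNA polymerase I, and the most abundant, Npm1, was at 124, 115 and 115 CPM after PH and 126, 140.4 and 120.3 CPM after sham surgery. Of 25 genes of the unfolded protein and integrated stress responses 2 were lower. Chac1, a glutathione-degrading enzyme induced by ATF4, was at 6.57, 13.7 and 7.59 CPM after PH and 51, 16.8 and 39.1 CPM after sham surgery (-1.97 ± 0.56 (SE), adjusted p = 0.0202), with sham 2 low, and its call was lost without PH 1 or without sham 1. Trib3, another target of ATF4, was lower at 0.938, 0 and 1.27 CPM after PH and 7.16, 4.93 and 5.80 CPM after sham surgery (adjusted p = 0.0092), with all PH libraries at or below the floor, while Atf4 and Hspa5 themselves had log2 fold changes of -0.08 and -0.03. Pdia6 was at 1227, 1359 and 1157 CPM after PH and 1452, 1148 and 1483 CPM after sham surgery, with NL at 175 to 302 CPM. Both operated groups thus lay above the unoperated livers, whose libraries mostly carry another mix. Of 8 foetal liver genes 0 were called. Over all genes tested 2475 had an unadjusted p under 0.05. In each list and direction where edgeR's test gave 0 calls, DESeq2 also gave 0. At an unadjusted p under 0.05 there were 1 higher and 7 lower genes of cholesterol synthesis, 0 and 6 of the acute phase, 0 and 0 of the study's DNA damage response genes and 0 and 0 foetal genes. In the direction with 0 calls there were likewise 7 genes of ribosome biogenesis (higher), 12 periportal and 3 pericentral genes (lower), 3 immediate early genes (lower), 2 clock genes (higher), 1 of bile acid metabolism (higher), 1 of glucose metabolism (higher), 1 cell cycle regulator and 1 of nucleotide synthesis (lower), and 0 replication, cytoskeletal, female-biased, hepatocyte factor and stress response genes.

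The most abundant genes of several other lists were not called. Ahsg, which encodes the plasma protein fetuin-A, was at 7520.4, 12153 and 9057 CPM after PH and 12931, 6260.4 and 9069.6 CPM after sham surgery, and its groups overlapped. Enzymes of hepatocyte metabolism had log2 fold changes of -0.52 (Gnmt, a glycine methyltransferase), -0.54 (Cyp2f2, of the periportal zone), -0.21 (Cyp2c29, of the pericentral zone), -0.52 (Gpx1, a glutathione peroxidase) and 0.00 (Akr1c6, an aldo-keto reductase). The values were -0.19 for the transcription factor Creb3l3, -0.21 for the growth factor-binding protein Igfbp4, -0.06 for the aldolase Aldoa of the foetal list and -0.23 for the p53 target Ei24. Among markers of other cells they were -0.18 for Clec4g (endothelium), 0.13 for Sparc (stellate cells), -0.47 for Ptprc (lymphocytes), -0.74 for Hdc (neutrophils) and 0.20 for Tfrc (erythroid cells).

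Of the 10 largest decreases among called genes with a name of their own, no overlap between the groups and a mean of at least 10 counts, 3 were outside the lists. Arrdc3, an arrestin-domain protein that limits β-adrenergic signalling, was at 23.9, 38.5 and 41.1 CPM after PH and 247, 92.4 and 129 CPM after sham surgery (-2.20 ± 0.39 (SE), adjusted p = 0.000306). Trappc6a, a subunit of a vesicle tethering complex, was at 3.28, 8.25 and 6.96 CPM after PH and 36.7, 18.9 and 24.6 CPM after sham surgery (-2.21 ± 0.30 (SE), adjusted p = 9.86e-06), and Hnf4aos, a transcript antisense to Hnf4a, was at 2.35, 1.37 and 1.90 CPM after PH and 20.6, 9.44 and 14.5 CPM after sham surgery (-2.73 ± 0.67 (SE), adjusted p = 0.00675). In each of them the groups did not overlap. The counting setting for strand is not given in the sources used here, so reads of Hnf4aos and Hnf4a may be shared. Predicted genes and RIKEN clones without a name of their own made up 37 of the 354 higher and 26 of the 245 lower calls.

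Markers of other liver cells were present at low levels. Of 20 Kupffer cell and macrophage markers 3 were lower and 0 higher, and 11 had all PH libraries below all sham libraries. Their summed level was 961 to 1194 CPM after PH and 1374 to 1531 CPM after sham surgery. The 3 called were the class II antigen presentation genes Cd74, H2-Aa and H2-Ab1, which B cells and dendritic cells also express. H2-Aa was at 13.1, 22 and 13.3 CPM after PH and 39.4, 49.3 and 60.9 CPM after sham surgery (-1.70 ± 0.33 (SE), adjusted p = 0.000826), H2-Ab1 at 14.5, 15.1 and 17.1 CPM after PH and 39.4, 48.4 and 55.1 CPM after sham surgery (-1.59 ± 0.32 (SE), adjusted p = 0.00102) and Cd74 at 6.10, 5.50 and 6.33 CPM after PH and 23.3, 16.4 and 30.4 CPM after sham surgery (-1.82 ± 0.53 (SE), adjusted p = 0.0227), which was not called without PH 1. C1qb, the most abundant macrophage marker, overlapped between the groups at 180.2, 201 and 179 CPM after PH and 253, 198 and 217 CPM after sham surgery. None of 20 sinusoidal endothelial and 17 stellate cell markers was called, with summed levels of 716 to 778 against 729 to 980 CPM and of 415 to 502 against 435 to 486 CPM. Of the markers of cholangiocytes 4 of 16 were tested, of lymphocytes 3 of 20, of neutrophils 1 of 15 and of erythroid cells 6 of 12, and 0 were called. Sox9, the most abundant cholangiocyte marker, was at 46.9, 35.7 and 41.1 CPM after PH and 21.5, 27.9 and 23.2 CPM after sham surgery (0.76 ± 0.39 (SE), adjusted p = 0.239). At an unadjusted p under 0.05 there were 0 higher and 2 lower endothelial markers, 2 higher and 3 lower stellate cell markers, and 0 of the other 4 cell types, and DESeq2 called 0 in all of these lists. The part of these cells in the changes above was not tested.

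The same contrast was then set beside that of YM and of VOF, whose libraries are separate from those of YF. Of the 599 genes called in YF, 90.5% had the same sign in YM and 89.8% in VOF, against 68.0% and 66.1% over all genes tested. The difference between the PH effects, tested as an interaction, was called in 10 genes against YM (0.0905%) and in 40 against VOF (0.362%), while 1027 and 1046 genes had an unadjusted p under 0.05. These counts moved with the setting, from 0 with the mix in the model to 57 and 114 with all labelled libraries. Without sham 1 there were 4 calls against YM, without PH 1 there were 5, and without PH 2 there were 16. Against VOF there were 12 without sham 2, 19 without PH 1 and 19 without sham 3.

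Mitosis genes had positive medians in all 3 pairs of groups, and 66 of the 67 had a smaller log2 fold change in YF than in YM and 52 than in VOF. The medians were 2.61 in YF, 4.67 in YM and 3.76 in VOF. The interaction was called for 1 of the 67 against YM, Prc1. The summed levels after PH were 1777 to 3232 CPM in YF, 4213 to 5193 CPM in YM and 3454 to 4883 CPM in VOF, so the YF libraries were below those of both other groups. After sham surgery they were 342 to 607 CPM in YF, 266 to 377 CPM in YM and 515 to 721 CPM in VOF. The log2 fold changes depend on genes near 0, since all sham libraries were at or below the floor in 11 of the 67 genes in YF, in 39 in YM and in 26 in VOF. Plk1 was at 1575, 1001 and 1309 CPM after PH and at 0 in each sham library of YM, and at 1050.4, 891 and 951 CPM after PH and 50.3, 132 and 90 CPM after sham surgery in VOF. Rrm2, whose difference was called, was at 95.4, 74.7 and 66.1 CPM after PH and 0.627, 6.83 and 3.72 CPM after sham surgery in YM, a difference between the PH effects of -3.0 ± 0.67 (SE), adjusted p = 0.0925. Ccnd1, which overlapped between the YF groups, was at 121, 78.6 and 152 CPM after PH and 20.7, 31.4 and 27.7 CPM after sham surgery in YM and at 114, 103 and 119.6 CPM after PH and 30.2, 27.8 and 24.7 CPM after sham surgery in VOF. The YF sham libraries were thus above those of the other groups, and the difference itself was -1.88 ± 0.54 (SE), adjusted p = 0.185 against YM and -1.77 ± 0.51 (SE), adjusted p = 0.158 against VOF.

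**Figure D5:**
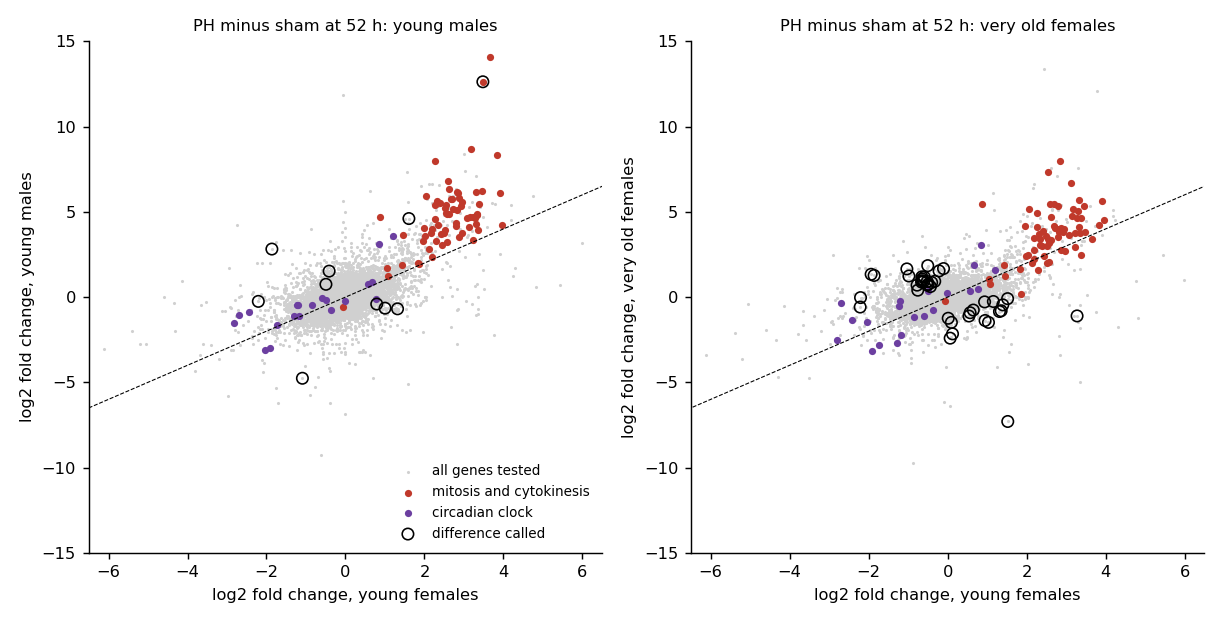
PH effect in young females against that in young males and in very old females at 52 h. Each point is a gene, axes are log2 fold changes PH over sham, mitosis genes are red and clock genes purple, black rings mark genes whose difference was called, and the dashed line marks equal change. The axes have unequal scales. Mitosis genes lie on the side of smaller change in young females (66 of 67 against young males and 52 of 67 against very old females).

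Metabolic genes differed in single cases. Sdsl was at 17.1, 21.2 and 14.3 CPM after PH and 28.2, 34.2 and 28.6 CPM after sham surgery in YM, a log2 fold change of -0.69 against 1.32 in YF, with a difference of 2.01 ± 0.40 (SE), adjusted p = 0.0306. Cyp4b1, a P450 enzyme, was lower in YF at 6.57, 8.25 and 7.59 CPM after PH and 16.1, 14.4 and 17.4 CPM after sham surgery (-1.09 ± 0.37 (SE), adjusted p = 0.0559). In YM it was at 1.55, 0 and 0 CPM after PH and 13.2, 16.4 and 12.8 CPM after sham surgery, a difference of 3.67 ± 0.84 (SE), adjusted p = 0.0925. All YM libraries after PH were at or below the floor, so that this difference depends on the prior count and is no bound, and the YF call itself was lost in 5 of the 6 fits that left out 1 library. Trappc6a was at 6.98, 8.86 and 10.4 CPM after PH and 7.52, 10.9 and 12 CPM after sham surgery in YM (difference between the PH effects, YF minus YM, -1.96 ± 0.44 (SE), adjusted p = 0.0925). In VOF it was at 15.6, 21 and 20.2 CPM after PH and 18.3, 21.5 and 17.8 CPM after sham surgery (difference, YF minus VOF, -2.18 ± 0.38 (SE), adjusted p = 0.00379). Its log2 fold change was -0.25 in YM and -0.03 in VOF. The clock list had medians of -1.02, -0.48 and -0.63 in YF, YM and VOF, in this order. In the same order the lipogenesis list had -0.54, -0.39 and -0.65 and the female-biased list -0.74, 0.07 and -0.33. The differences between these medians were not tested. In 8 of the 28 female-biased genes all YM sham libraries were at or below the floor, against 0 in YF. The summed sham level of that list was 1042 to 1256 CPM in YM and 6453 to 10534 CPM in YF.

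Among the differences against VOF, Ltc4s and Pld4 are genes of phagocytes. Ltc4s, the leukotriene C4 synthase, was at 3.28, 2.75 and 1.27 CPM after PH and 4.47, 3.69 and 10.1 CPM after sham surgery in YF and at 10.4, 12.3 and 11.3 CPM after PH and 3.83, 3.33 and 3.46 CPM after sham surgery in VOF, a difference of -2.69 ± 0.68 (SE), adjusted p = 0.0808. Pld4, a nuclease of phagocytes, was at 4.69, 6.87 and 6.33 CPM after PH and 12.5, 9.85 and 13 CPM after sham surgery in YF and at 8.85, 10.1 and 7.79 CPM after PH and 2.13, 4.45 and 4.45 CPM after sham surgery in VOF (difference -2.22 ± 0.45 (SE), adjusted p = 0.0189). In VOF both genes passed the test with log2 fold changes of 1.65 and 1.23, whereas in YF the values of -1.03 and -0.98 were not called. Alox5ap, the activating protein of 5-lipoxygenase, fell below the minimum of 10 counts for naming and was picked after its values were seen. It was at 3.28, 4.12 and 2.53 CPM after PH and 9.85, 12.3 and 13 CPM after sham surgery in YF (-1.86 ± 0.50 (SE), adjusted p = 0.0132), and its differences were -4.68 ± 0.85 (SE), adjusted p = 0.0093 against YM and -3.13 ± 0.71 (SE), adjusted p = 0.0475 against VOF. Of the 20 macrophage markers, 20 had a smaller log2 fold change in YF than in VOF, and the difference was called for 2, Spi1 (-1.71 ± 0.34 (SE), adjusted p = 0.0171) and C1qc (-1.26 ± 0.31 (SE), adjusted p = 0.0792), against 0.362% of all genes. Their summed level in VOF was 1245 to 1670 CPM after PH and 829 to 1253 CPM after sham surgery. Pfn1, the actin-binding profilin, was at 61.5, 188 and 120.2 CPM after PH and 47.4, 63.6 and 60.9 CPM after sham surgery in YF and at 26.6, 41.2 and 32.9 CPM after PH and 79.2, 104 and 94.9 CPM after sham surgery in VOF (difference, YF minus VOF, 2.52 ± 0.57 (SE), adjusted p = 0.0468). Its log2 fold change was -1.48 in VOF, and the 1.03 of YF did not pass the test (adjusted p = 0.104).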

How the data were processed

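The authors sequenced hepatocyte RNA by CEL-seq2, a 3′ end method with unique molecular identifiers, and deposited estimated transcript counts (expected counts) of 11049 mouse genes in 133 libraries. Per the study's methods, identifiers were converted to transcript numbers by a binomial correction over 4096 identifiers, reads were mapped to GRCm38, 9 genes and weakly expressed genes were removed, and datasets were joined with ComBat-Seq. The submitters' processing notes name bcl2fastq 2.20 and GRCh38. The batch variable of ComBat-Seq and the strand setting of counting are not given in the sources used here. In 448 genes the deposited values are not all whole numbers, and 394 of these were 0 throughout at least 1 of 27 mixes. All values were rounded to whole numbers before any test.

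Groups were taken from the labels. The table was fitted once with edgeR 4.0.16 (R 4.3.3) by quasi-likelihood over the 46 unmarked libraries of 15 groups, with TMM scaling and genes of at least 0.5 CPM in 1 library (11048 genes). Benjamini-Hochberg adjustment covered all genes, and a call needed an adjusted p under 0.1 and a 2-fold change, the default of the tool the study used. Differences between PH effects were contrasts of the same fit. The SE beside a log2 fold change or difference was not estimated separately. It is the absolute value of that change divided by the square root of the F statistic of edgeR's test. The procedure was tested on simulated data. DESeq2 1.42.0, RLE scaling, other filters and thresholds, narrower and wider sets of libraries, the mix as a covariate, a replicate block and leaving out each library were the alternatives. Exact intervals for counts are 95% and cover counting error only. Named genes were the 10 largest changes in each direction among called, non-overlapping genes with a mean of at least 10 counts, up to 4 called genes and the most abundant gene of each list, and, with the same count minimum over the libraries compared, 3 genes at either end of each difference between groups. Predicted genes, RIKEN clones and pseudogenes were counted but not named. Some of these are not reported here. Other members of the lists were named after their values were seen. The comparison and the 40 gene lists were chosen with earlier results of these data known. Promoter sequences are from RefSeq (GRCm38.p6), matched by symbol. Plots used matplotlib 3.10.9, and tables pandas 2.3.3 and NumPy 2.4.6.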

Additional observations from a re-analysis of the deposited data

Results flagged for a closer look

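In normal liver of YF, 5 of the 79 genes named and called had a library far from the other 3, as judged by the ratio of its gap to the whole range, and chance alone flags about 1 in 20 groups. Shcbp1 (2.70 CPM), Nusap1 (0.675 CPM), Ska1 (1.35 CPM) and Cdc20 (1.35 CPM) were above 0 in 1 library and at 0 in the others, which fixes the ratio at 1.00. In all 4 genes it was library 4 (mix 18), and Nusap1, Ska1 and Cdc20 lay below its floor of 2.07 CPM. Rrm2 stood at 7.09 CPM in 1 library against 2.77 to 3.38 CPM in the others, a ratio of 0.860.

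The PH effect differed between YF and YM, by edgeR's test of the difference, in 6 of the genes named. The differences (YF minus YM, log2) were -9.15 for Prc1, -3.0 for Rrm2, -1.96 for Trappc6a, 1.65 for Tmem214, 2.01 for Sdsl and 3.67 for Cyp4b1. All YM sham libraries were at 0 for Prc1, and all YM libraries after PH were at or below the floor for Cyp4b1, so both values depend on the prior count and are no bounds. Tmem214, a membrane protein of the endoplasmic reticulum, was at 29.5, 26.6 and 22 CPM after PH and 40.7, 51.9 and 36.4 CPM after sham surgery in YM, and at 47.4, 52.2 and 44.3 CPM after PH and 32.2, 19.7 and 20.3 CPM after sham surgery in YF.

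Between YF and VOF the differences were -2.69 for Ltc4s, -2.35 for Ifi27l2a, -2.22 for Pld4, 1.65 for Pou2f1, 1.85 for Phykpl and 2.52 for Pfn1. Ifi27l2a, an interferon-induced gene, was at 12, 23.9 and 17.7 CPM after PH and 5.11, 4.45 and 4.94 CPM after sham surgery in VOF, and at 8.91, 8.25 and 5.06 CPM after PH and 10.7, 9.44 and 13 CPM after sham surgery in YF. The transcription factor Pou2f1 was at 4.69, 10.1 and 7.08 CPM after PH and 17.9, 12.6 and 15.8 CPM after sham surgery in VOF, and at 10.8, 16.5 and 14.6 CPM after PH and 8.95, 9.44 and 8.70 CPM after sham surgery in YF. Phykpl, an enzyme of hydroxylysine breakdown, was at 41.1, 89.7 and 54.9 CPM after PH and 48.6, 108 and 92.9 CPM after sham surgery in VOF, and at 47.9, 78.3 and 40.5 CPM after PH and 26.8, 14.4 and 23.2 CPM after sham surgery in YF.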

How the results depend on the processing

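Depth limits genes near the floor, and the mix is partly confounded with replicate number. PH 3 (mix 18) and sham 3 (mix 17) share their mix with no other PH or sham library of YF at 52 h. Mix 18 also holds YM libraries after PH and after sham surgery. The calls, 354 higher and 245 lower, became 126 and 99 with the mix as a covariate, and 119 and 75 of these were among the original calls. Without single libraries the calls ranged from 207 to 376 and from 84 to 279, the lowest values being without PH 1 in both directions. At an adjusted p under 0.05 with no fold minimum 511 genes were lower. The difference against YM, 10 genes in the fit reported, had 33 by DESeq2, 4 at an adjusted p under 0.05, 37 in a fit of only the groups compared, 0 with the mix, 57 with all labelled libraries, and 4 to 16 without single libraries. The difference against VOF, 40 genes, had 26 by DESeq2, 19 at an adjusted p under 0.05, 0 with the mix, 114 with all labelled libraries, and 12 to 57 without single libraries. A cause for these moves was not tested. The 79 genes named and called kept their direction under every alternative run, but 37 were no longer called with the mix in the model, 26 without PH 1, 16 without sham 2 and 15 in the mix 3 libraries only.

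In a model of the groups compared with the replicate number as a block, 353 genes were higher and 197 lower, with 33 differences against YM and 20 against VOF. The deviations of same-numbered PH and sham libraries correlated at 0.00025, 0.033 and 0.036 (numbers 1, 2 and 3), so the numbers were not taken to pair the libraries, although those numbered 1 and 2 also share mix 3, and PH 1 correlated more with sham 2 (0.0058) than with sham 1.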
